A study of Mus musculus with 12 samples.

Results

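The Regenerating protein (Reg) genes of the mouse encode small secreted C-type lectin proteins. The 6 genes Reg1, Reg2, Reg3a, Reg3b, Reg3d and Reg3g were chosen by symbol in the authors' deposited comparison table, which lists 13703 genes, and were followed in the deposited count table, which holds 49315. All 6 were present in both tables and all 6 were among the 13115 genes that passed the filter on low counts. The libraries were made from polyadenylated RNA of pancreatic islets of female NOD/ShiLtJ wild-type mice, a strain that develops autoimmune diabetes. Mice with normal blood glucose at 9 weeks of age received a control IgG (6 libraries) or an antibody against CD3, the signalling part of the T cell receptor (6 libraries), once a week over 4 weeks. Anti-CD3 was given at 2.5 mg/kg, and the sources used here do not give a dose for IgG. Islets were taken 2 to 3 days after the last dose. The labels do not say whether a library came from 1 mouse or from several, so the p-values below measure the spread between these samples.

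Reg proteins are made mainly by acinar cells, the enzyme-secreting cells of the exocrine pancreas, and by the epithelium of the gut. Reg1, the counterpart of human pancreatic stone protein, and Reg2, its closest relative, are products of the healthy exocrine pancreas. Reg3b and Reg3g belong to the pancreatitis-associated proteins, which appear in pancreatic juice when acinar cells are inflamed, and Reg3g binds the cell wall of Gram-positive bacteria in the gut. Reg3d is known as the relative of the islet neogenesis-associated protein of hamsters. Interleukin-6 and interleukin-22, acting through receptors of the JAK-STAT pathway and STAT3, are textbook inducers of the Reg3 genes.

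The 6 genes stand together on chromosome 6. On GRCm38 they filled an interval of 98216 bases that held 6 annotated genes, every one of them a Reg gene, and none overlapped another gene. Reg3b (ENSMUSG00000071356) spans 78370657 to 78373466 on the plus strand, and Reg3d (ENSMUSG00000068341) spans 78375874 to 78378865 on the minus strand. Reg3a (ENSMUSG00000079516) follows at 78380709 to 78383827, Reg2 (ENSMUSG00000023140) at 78395623 to 78408106 and Reg1 (ENSMUSG00000059654) at 78422711 to 78428667, all on the plus strand. Reg3g (ENSMUSG00000030017) lies apart at 78466269 to 78468872 on the minus strand. The order along the chromosome was not the order of the differences between the groups: Reg3d, with the second smallest log2 fold change, lies between Reg3b and Reg3a, with the 2 largest.

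**Figure D1:**
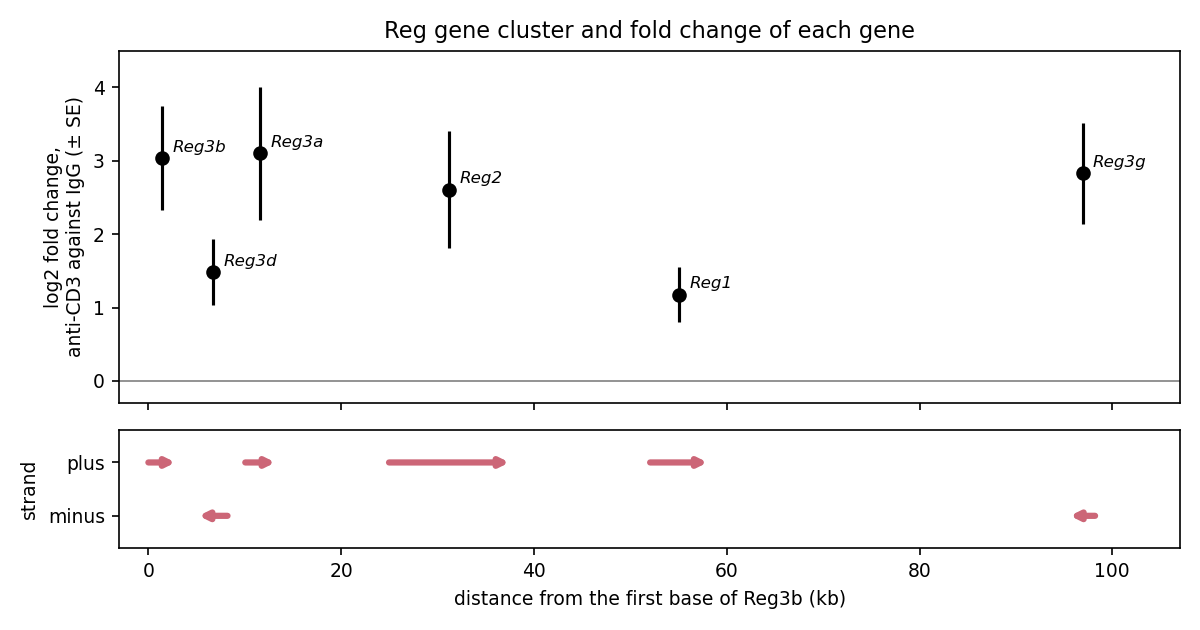
The upper panel plots each gene's log2 fold change in anti-CD3 against IgG (edgeR, bars are SE) at its distance in kb from the first base of Reg3b, and the lower panel draws the genes with arrows along their strand. Reg3b, Reg3a, Reg2 and Reg3g lie between 2.61 and 3.10, and Reg3d and Reg1 at 1.48 and 1.18.

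The promoters of the 6 genes are shown because the genes are neighbours whose levels differed between the groups in 1 direction. The sequences are from RefSeq (GRCm38.p6), run 5′ to 3′ on each gene's strand and cover 130 to 22 bases before the annotated start, or 130 to 24 for Reg1. Of these bases, 30 in Reg1 and 3 in Reg3b also lie in an exon of an alternative transcript. Capitals mark the TATA box motif TATAAA, the AP-1 motif TGANTCA, the STAT motif TTCNNNGAA, the shorter motif GGAAAC and the shared run TGCCAA.
Reg3b, chr6:78370755-78370863, plus strand: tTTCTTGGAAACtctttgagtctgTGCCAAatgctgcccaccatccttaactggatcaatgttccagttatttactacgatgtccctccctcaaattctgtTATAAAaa
Reg3g, chr6:78468896-78469004, minus strand: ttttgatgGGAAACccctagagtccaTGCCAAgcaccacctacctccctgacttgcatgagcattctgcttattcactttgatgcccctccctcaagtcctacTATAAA
Reg3a, chr6:78380579-78380687, plus strand: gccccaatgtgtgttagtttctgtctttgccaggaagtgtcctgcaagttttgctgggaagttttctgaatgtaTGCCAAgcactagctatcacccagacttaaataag
Reg3d, chr6:78378887-78378995, minus strand: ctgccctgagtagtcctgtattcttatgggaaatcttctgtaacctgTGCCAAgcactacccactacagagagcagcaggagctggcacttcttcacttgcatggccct
Reg2, chr6:78405025-78405133, plus strand: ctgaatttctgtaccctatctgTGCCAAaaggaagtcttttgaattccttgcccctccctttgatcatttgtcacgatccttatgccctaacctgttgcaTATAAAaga
Reg1, chr6:78425853-78425959, plus strand: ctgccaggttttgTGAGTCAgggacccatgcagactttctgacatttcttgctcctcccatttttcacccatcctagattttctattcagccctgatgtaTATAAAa

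TATAAA stood 30 bases before the start of Reg1 and of Reg2, 29 before Reg3b and 27 before Reg3g, which also holds it on the other strand, and was absent from the 250 bases before Reg3a and Reg3d. Of 32851 RefSeq promoters of 250 bases, 12.4% held it on either strand. The STAT motif TTCNNNGAA was found in Reg3b and in Reg3d (7.02% of all promoters) and its stricter form TTCCNGGAA in none of the 6 (0.913%). GGAAAC was found in Reg3b, Reg3d and Reg3g (16.3% of all promoters), and in Reg3b and Reg3d it overlaps the STAT motif. TGANTCA was found in Reg1 alone among the 6 (6.75%). CANNTG, the E-box, was found in all 6 but also in 66.2% of all promoters, and the palindromic nuclear factor I motif in none (0.283%). The longest run that all 6 promoters shared on the gene's strand was TGCCAA, found by comparing the 6 and held by 6.31% of all promoters. In Reg1 this run lies further out, 203 bases before the start. A match of letters describes the sequence and does not show that a factor binds.

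The promoters of Reg3b and Reg3g were the most alike, with 68.4% identity over 250 bases, and the other 14 pairs had 40.1% to 53.6%. The coding sequences followed the subfamilies. Reg1 and Reg2 were identical at 78.8% of aligned positions, Reg3b and Reg3g at 76.0% and Reg3a and Reg3b at 73.2%. Reg3d was set apart from the other Reg3 genes at 64.8% to 65.5%, and Reg1 or Reg2 matched a Reg3 gene at 53.6% to 57.3%. The reference transcripts of the 6 genes shared no run of 50 bases, and only Reg3b and Reg3g shared runs of 30 bases, 6 in number. The sources used here do not give how the authors' counting treated reads that fit more than 1 gene.

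The samples set limits on every value that follows. Although the tissue is labelled as islets, 30 acinar genes, led by the protease Ctrb1 and the lipase Pnlip, held a large part of every library. They took 64.5% to 71.5% of the counts in IgG 1 to IgG 4, 55.1% in IgG 5, 32.3% in IgG 6 and 68.1% to 72.0% in anti-CD3. Beta cell markers took 0.872% to 2.31% of counts in IgG and 0.696% to 1.54% in anti-CD3. Total counts ran from 10994337 to 19284740 per library. IgG 6 stood apart, with the lowest acinar share and the lowest level of all 6 Reg genes. One count column, that of anti-CD3 5, carries an unexplained prefix in its name, and this library had the highest level of 5 of the 6 genes. Results for the Reg genes are therefore also given without IgG 5 and IgG 6 and without anti-CD3 5. The lists of other genes are given over all 12 libraries only.

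In the comparison of anti-CD3 with IgG, which asks what the antibody changed in the islet transcriptome, all 6 Reg genes were higher in anti-CD3 and none passed edgeR's test at an adjusted p of 0.05. Their median log2 fold change was 2.72, against -0.05 over all 13115 genes tested. At that threshold edgeR called 0.0762% of all genes higher. All 6 had an unadjusted edgeR p under 0.05, as did 9.68% of all genes in that direction. In levels given as counts relative to library size (CPM) and scaled by TMM, which corrects for the share that a few abundant genes take, every anti-CD3 library exceeded every IgG library for each of the 6 genes. This held for 1.2% of all genes. In whole tissue, more cells of a type and more RNA per cell cannot be told apart.

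**Figure D2:**
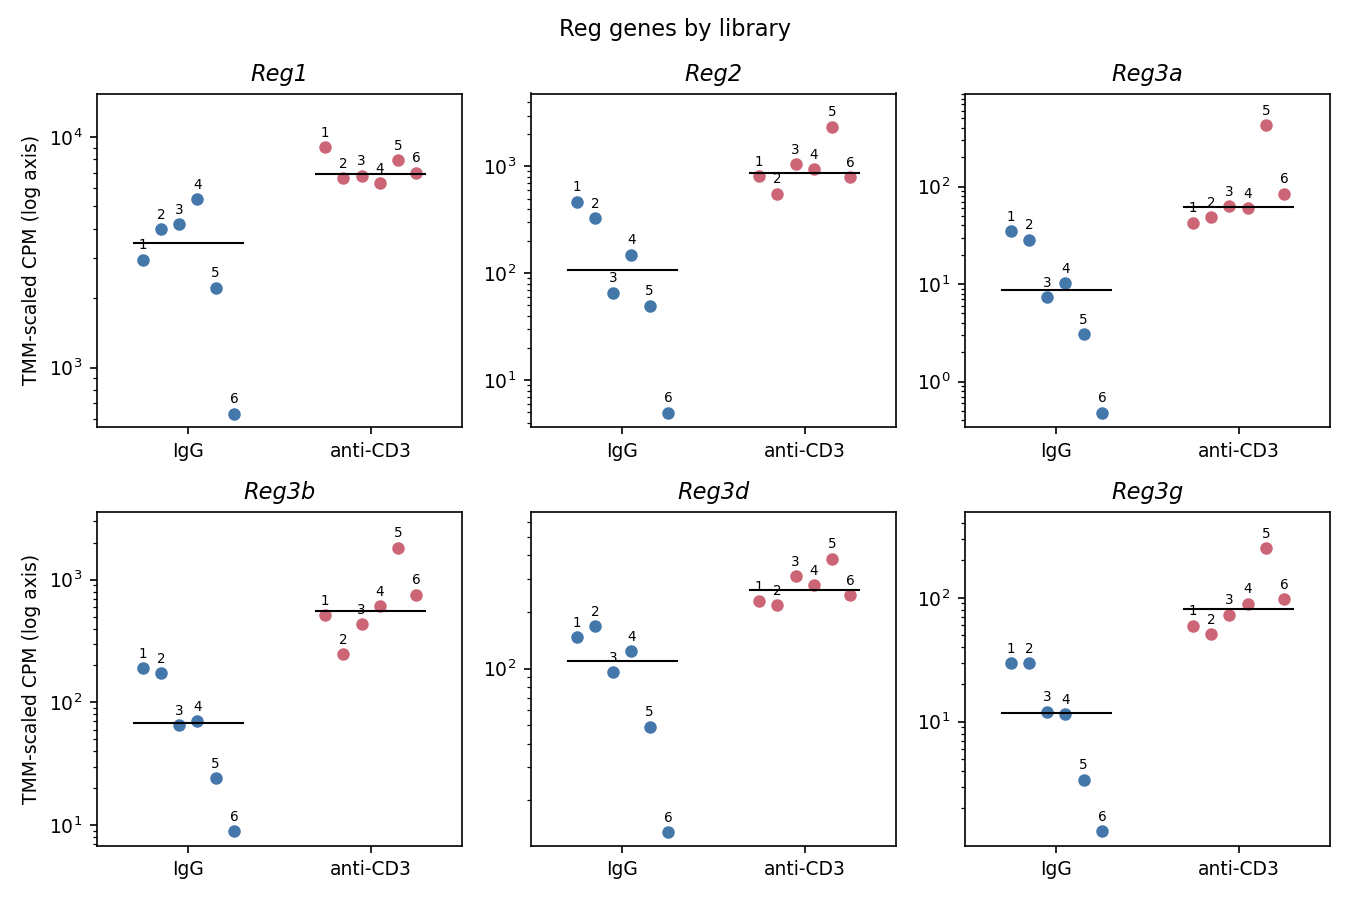
Each point is 1 library, numbered as in the labels, and the log axis gives its TMM-scaled CPM, with bars at the group medians (n = 6 per group). In all 6 panels the anti-CD3 points lie above the IgG points, IgG 6 is the lowest IgG library, and anti-CD3 5 is the highest anti-CD3 library in every panel except that of Reg1.

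Reg1 was by far the most abundant member. Its TMM-scaled CPM was 2936, 3985, 4183, 5374, 2222 and 629.8 in IgG 1 to IgG 6, and 9016, 6630.3, 6792, 6296, 7928 and 7015 in anti-CD3 1 to anti-CD3 6. The anti-CD3 libraries were close to each other, with 1.43-fold between the lowest and the highest, while IgG spanned 8.53-fold. Scaled by library size alone, these spans were 1.22-fold and 3.25-fold. The log2 fold change was 1.18 ± 0.37 (SE, 6 libraries in each group), or 2.26-fold, the smallest of the family, with an edgeR adjusted p of 0.138.

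Reg2, the other member abundant in the healthy pancreas, had a wider range. Its CPM was 469, 329.9, 66.0, 149, 49.7 and 4.94 in the IgG libraries and 814, 556, 1046, 937, 2362 and 798 in the anti-CD3 libraries. IgG 1 and IgG 2 came closest to the anti-CD3 libraries, and IgG 6 lay 94.9-fold below IgG 1, or 44.9-fold when scaled by library size alone. The log2 fold change was 2.61 ± 0.79 (SE, 6 libraries in each group), or 6.09-fold, with an edgeR adjusted p of 0.137. The log2 fold change was thus larger for Reg2 than for Reg1, although their coding sequences are the closest pair of the family. The exact permutation test of their ratio gave an adjusted p of 0.0487, and up to 0.163 with other libraries or settings, and the ratios of the groups overlapped.

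Reg3b, the pancreatitis-associated protein with the highest level among the Reg3 genes in anti-CD3, had the smallest p of the family. Its CPM was 191, 172, 65.3, 70.4, 24.2 and 8.87 in the IgG libraries and 512, 246, 435, 606, 1821 and 754 in the anti-CD3 libraries. The lowest anti-CD3 library, anti-CD3 2, stood just above the highest IgG library, IgG 1. The log2 fold change was 3.04 ± 0.71 (SE, 6 libraries in each group), or 8.22-fold, with an edgeR adjusted p of 0.0769.

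Reg3g, the antibacterial lectin, was measured at a lower level. Its CPM was 29.7, 29.8, 12.05, 11.6, 3.40 and 1.30 in the IgG libraries and 59.4, 50.9, 72.9, 89.6, 252 and 97.7 in the anti-CD3 libraries. The log2 fold change was 2.83 ± 0.69 (SE, 6 libraries in each group), or 7.10-fold, with an edgeR adjusted p of 0.0866. As for Reg3b, IgG 1 and IgG 2 were the highest IgG libraries.

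Reg3a, the least abundant member in IgG, had the largest fold change and the largest error. Its CPM was 35.0, 28.6, 7.29, 10.2, 3.08 and 0.478 in the IgG libraries, the last resting on 18 counts, and 42.4, 48.2, 62.6, 60.2, 428 and 84.3 in the anti-CD3 libraries. The log2 fold change was 3.10 ± 0.91 (SE, 6 libraries in each group), or 8.58-fold, with an edgeR adjusted p of 0.125. Anti-CD3 5 weighed on it more than on any other member: without that library the log2 fold change was 2.08 ± 0.74 (SE; edgeR adjusted p = 0.270).

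Reg3d, the islet neogenesis-associated relative, stood nearer to Reg1 than to the other Reg3 genes. Its CPM was 147, 168, 95.6, 124, 49.3 and 13.6 in the IgG libraries and 229, 218, 310.3, 277, 384 and 246 in the anti-CD3 libraries. The spread within anti-CD3 was small, 1.76-fold between the lowest and the highest. The log2 fold change was 1.48 ± 0.45 (SE, 6 libraries in each group), or 2.79-fold, with an edgeR adjusted p of 0.136.

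The calls depended on the test, while the direction did not. In the authors' deposited table all 6 genes have an adjusted p under 0.05, from 0.00195 for Reg3b to 0.0276 for Reg2, with log2 fold changes of 1.18 for Reg1 to 3.11 for Reg3a. The same table calls 3.24% of the genes with an adjusted p higher. DESeq2 on the deposited counts called all 6 as well (adjusted p 0.00224 to 0.0294), and 2.75% of all genes higher. Limma-voom with sample weights called Reg2, Reg3b and Reg3g (adjusted p 0.0442, 0.0314 and 0.0314) and 0.32% of all genes higher. Without anti-CD3 2, edgeR called Reg3b (adjusted p = 0.0432) and 1.35% of all genes higher. Without anti-CD3 5, the highest library for 5 members, edgeR called 0 of the 13440 genes tested, and so none of the 6. The log2 fold changes of the 6 then ran from 1.15 for Reg1 to 2.53 for Reg3b.

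**Figure D3:**
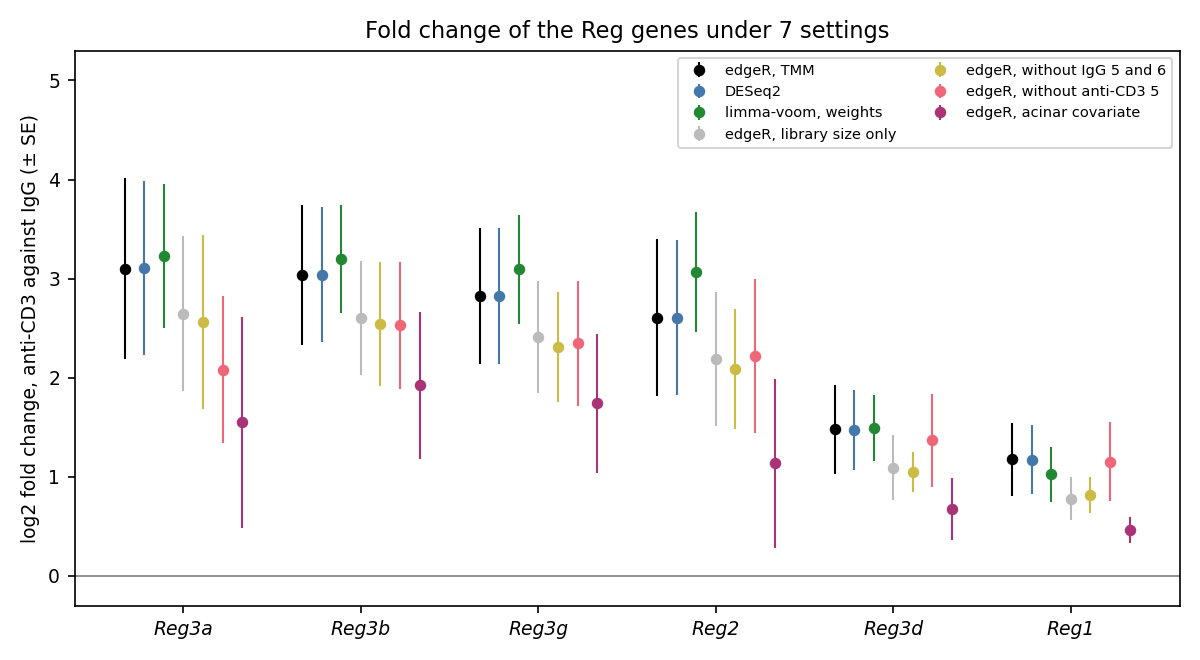
Points are log2 fold changes (anti-CD3 against IgG) and bars their SE, for each gene under 7 fits or sets of libraries named in the legend. Every point lies above 0; with the acinar score as a covariate, the values run from 0.46 for Reg1 to 1.92 for Reg3b.

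The Reg genes were also compared with the acinar genes of the same library, since the acinar share was lowest in 2 IgG libraries, IgG 5 and IgG 6. Of the 30 acinar genes, 29 were higher and 1 lower in anti-CD3. Their median log2 fold change was 0.68, and none passed edgeR's test. An unadjusted edgeR p under 0.05 was found for 11, all of them higher, against 9.68% of all genes in that direction. The summed TMM-scaled CPM of the acinar genes was 138060.1 to 844433 in the IgG libraries and 748383 to 983011 in the anti-CD3 libraries. The Reg differences were set beside the acinar share in 3 ways. These were the ratio to the acinar counts, the fit with an acinar covariate and the fit without the acinar-poor libraries. The acinar share of IgG 1 to IgG 4, 64.5% to 71.5%, overlapped that of anti-CD3, 68.1% to 72.0%. The 2 acinar-poor libraries, IgG 5 and IgG 6, were both in the IgG group. None of the 3 ways gives the part of the acinar share in the Reg differences.

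Per 1000 acinar counts, Reg1 gave 5.03, 6.13, 4.95, 6.76, 6.39 and 4.56 counts in the IgG libraries and 9.47, 8.86, 8.40, 8.34, 8.07 and 7.84 in the anti-CD3 libraries. The groups did not overlap, and IgG 6, the lowest, was close to the other IgG libraries on this scale. Reg3b gave 0.327, 0.265, 0.0773, 0.0886, 0.0696 and 0.0643 counts per 1000 acinar counts in the IgG libraries and 0.538, 0.329, 0.537, 0.803, 1.85 and 0.842 in the anti-CD3 libraries. The groups again did not overlap, by a narrow gap between IgG 1 and anti-CD3 2. Reg3g did not overlap either, at 0.00943 to 0.0509 in IgG and 0.0624 to 0.256 in anti-CD3. Groups that do not overlap in this ratio were found for 0.0534% of all genes in this direction.

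Reg2, Reg3a and Reg3d overlapped on this scale. Reg2 gave 0.0358 to 0.804 counts per 1000 acinar counts in IgG and 0.743 to 2.40 in anti-CD3. Reg3a gave 0.00346 to 0.0600 in IgG and 0.0446 to 0.435 in anti-CD3, and Reg3d 0.0982 to 0.258 and 0.241 to 0.390. For each of these 3 genes, 5 of 6 anti-CD3 libraries lay above the highest IgG library. On the log2 scale, the mean ratio to the acinar counts was higher in anti-CD3 by 2.72 for Reg3a, 2.69 for Reg2, 2.57 for Reg3b, 2.47 for Reg3g, 1.01 for Reg3d and 0.60 for Reg1.

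**Figure D4:**
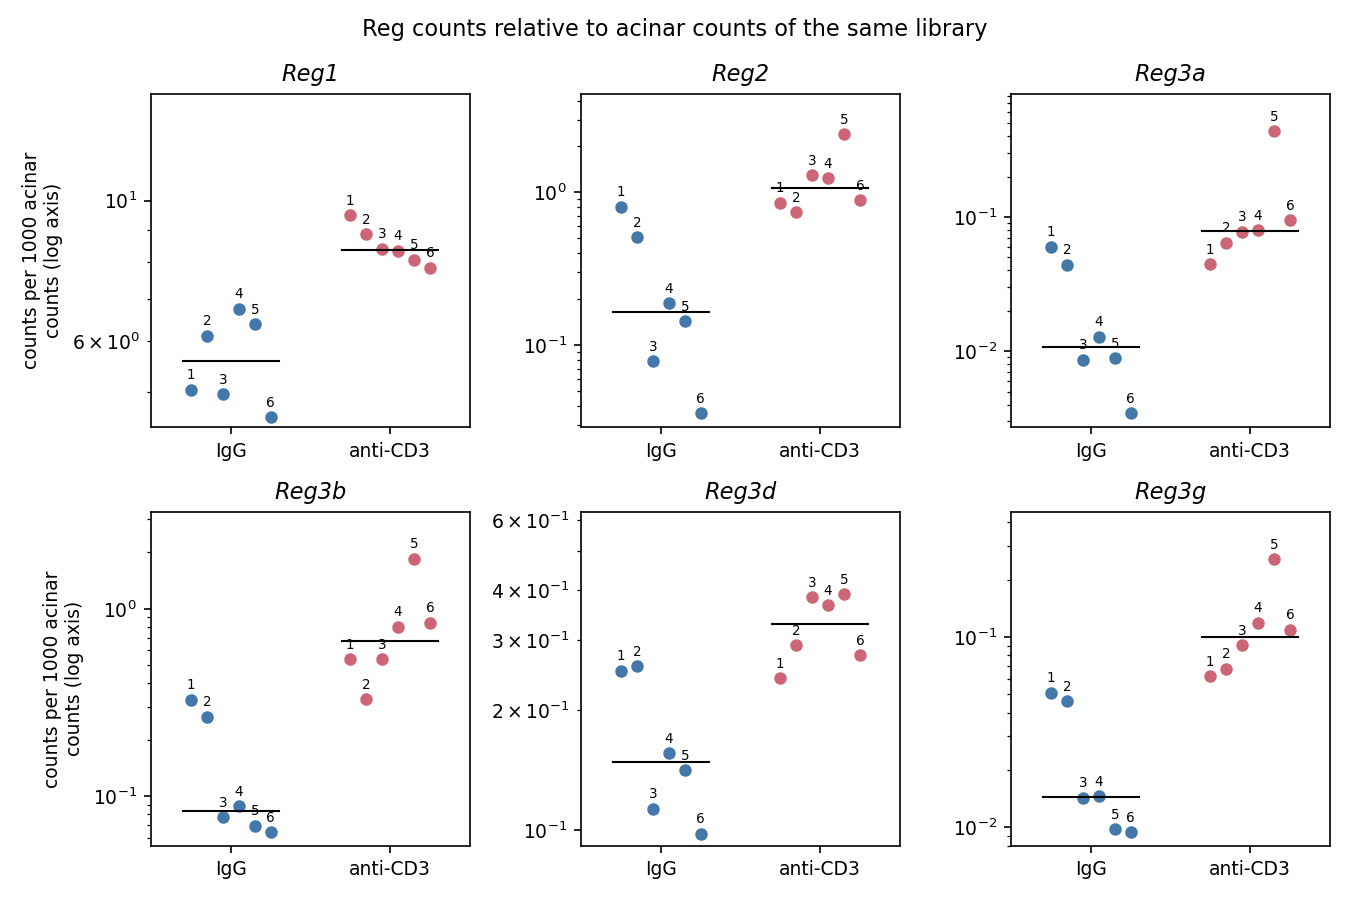
Points are the counts of each gene per 1000 counts of the 30 acinar genes in the same library, on log axes, with bars at the group medians (n = 6 per group). The groups are separate for Reg1, Reg3b and Reg3g and overlap for Reg2, Reg3a and Reg3d, and IgG 1 and IgG 2 are the highest IgG libraries for every gene but Reg1.

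With the mean log2 CPM of the acinar genes as a covariate, the median log2 fold change of the family was 1.34. The values were 0.46 ± 0.13 for Reg1, 0.68 ± 0.31 for Reg3d, 1.14 ± 0.86 for Reg2, 1.55 ± 1.07 for Reg3a, 1.74 ± 0.70 for Reg3g and 1.92 ± 0.74 for Reg3b (SE, n = 6 per group). With this covariate 0 of the 13115 genes tested passed edgeR's adjusted threshold, and so none of the 6. Reg1, Reg3b, Reg3d and Reg3g had an unadjusted p under 0.05, as did 4.93% of all genes in this direction. Without IgG 5 and IgG 6, the median log2 fold change was 2.20 and all 6 kept an unadjusted edgeR p under 0.05. Of the 13203 genes tested in that fit, 823 were higher at that p. None of the 6 passed the adjusted threshold, and 1 gene of all tested did. Without TMM factors, scaled by library size alone, the median of all genes shifted to -0.70 and that of the family was 2.30. On that scale the groups did not overlap for Reg1, Reg3b and Reg3g (0.122% of all genes), and for Reg2, Reg3a and Reg3d 5 of 6 anti-CD3 libraries lay above IgG.

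As a whole, the 6 genes took 0.421%, 0.489%, 0.375%, 0.512%, 0.373% and 0.154% of all counts in the IgG libraries and 0.796%, 0.713%, 0.742%, 0.746%, 0.965% and 0.707% in the anti-CD3 libraries. The lowest anti-CD3 library exceeded the highest IgG library. As a share of the acinar counts, the family stood at 0.477% to 0.725% in IgG and at 1.00% to 1.34% in anti-CD3.

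Per kb of reference transcript, Reg1 was the highest member in all 12 libraries, 3.05 to 47.3 times the next. Reg2 came next in 4 of 6 IgG libraries and in all 6 anti-CD3 libraries. Medians per kb in anti-CD3 were 8977 CPM for Reg1, 1255 for Reg2, 714 for Reg3b, 334 for Reg3d, 105 for Reg3g and 74.5 for Reg3a. The medians in IgG were 4499.9 for Reg1, 154 for Reg2, 140.4 for Reg3d, 86.7 for Reg3b, 15.3 for Reg3g and 10.6 for Reg3a. Apart from Reg1, the range of each gene over the libraries of a group overlapped that of its neighbour in this order. Within single libraries the order was steadier. In all 6 anti-CD3 libraries Reg2 stood above Reg3b, Reg3b above Reg3d and Reg3d above Reg3g, and Reg3g stood above Reg3a in 5 of 6. In IgG, Reg3b and Reg3d each stood above Reg3g in all 6 libraries, Reg3g above Reg3a in 5, and Reg2 above Reg3d and Reg3d above Reg3b in 4. Of the family's counts, Reg1 made up 90.0% ± 7.48 in the IgG libraries but 77.0% ± 9.10 in the anti-CD3 libraries (SD, n = 6 per group). The 4 Reg3 genes together made up 5.65% ± 3.07 and 12.1% ± 5.33, and Reg2 4.38% ± 4.47 and 10.8% ± 3.98 (SD, n = 6 per group).

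Whether the members differed among themselves in the size of the difference was tested on log2 ratios between 2 members within each library, which do not depend on scaling. Of the 15 pairs, 8 passed an exact permutation test over all regroupings of the libraries (two-sided, adjusted over the 15 pairs), all of them pairs of Reg1 or Reg3d with Reg2, Reg3a, Reg3b or Reg3g. This division into 2 sets was named after the values were seen. Relative to Reg1, the log2 ratio was higher in anti-CD3 by 2.09 for Reg3a, 2.08 for Reg2, 1.97 for Reg3b and 1.85 for Reg3g, with SE of 0.78, 0.71, 0.57 and 0.56 (exact permutation adjusted p = 0.0487, 0.0487, 0.0379 and 0.0379, n = 6 per group). Relative to Reg3d it was higher by 1.69 for Reg3a, 1.68 for Reg2, 1.57 for Reg3b and 1.45 for Reg3g, with SE of 0.57, 0.48, 0.38 and 0.34 (exact permutation adjusted p = 0.0379, 0.0216, 0.0216 and 0.0216, n = 6 per group). Only for Reg3d with Reg3g did the ratios of the groups not overlap.

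The other 7 pairs did not pass. The log2 ratio of Reg1 to Reg3d was lower in anti-CD3, at -0.40 ± 0.26 (SE; exact permutation adjusted p = 0.253, n = 6 per group). The 6 pairs among Reg2, Reg3a, Reg3b and Reg3g differed by 0.01 to 0.24 in size, with Reg3b to Reg3g, the pair with the most alike promoters, at 0.12 ± 0.13 (SE; exact permutation adjusted p = 0.597, n = 6 per group). The number of passing pairs changed with the libraries kept, and all 8 still passed without IgG 1 or without IgG 2. Without IgG 5 and IgG 6, without anti-CD3 5 or without anti-CD3 6, 0 of the 15 passed. Leaving out any 1 of IgG 3 to IgG 6 or anti-CD3 2 left 3, leaving out anti-CD3 3 or anti-CD3 4 left 2, and leaving out anti-CD3 1 left 6. Over all 14 alternatives these 8 differences kept their direction and lay between 1.18 and 2.55 in size.

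**Figure D5:**
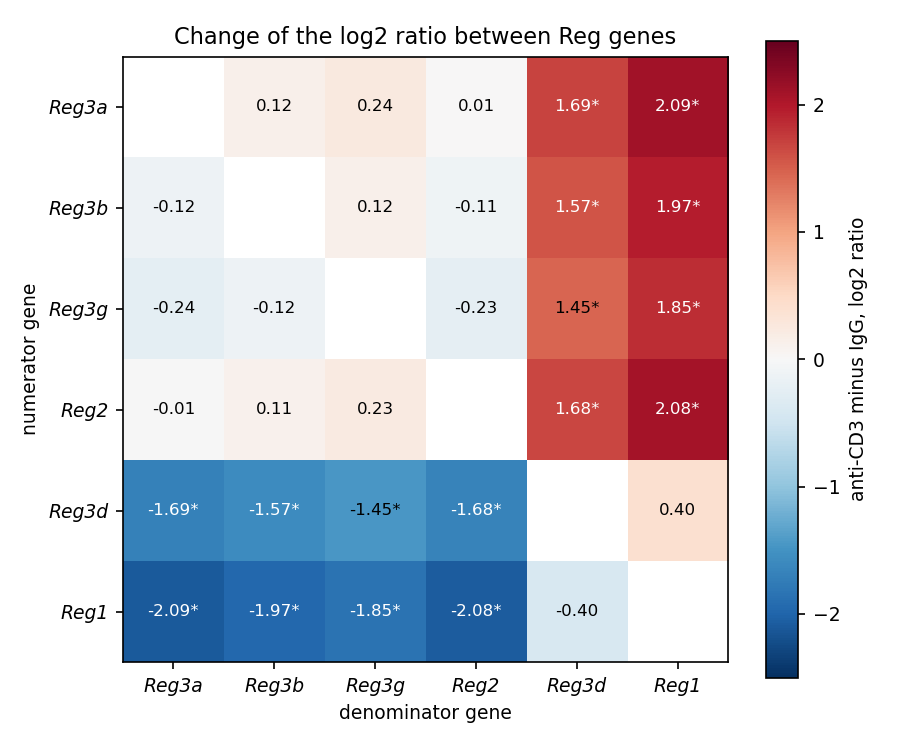
Each cell gives the mean log2 ratio of the row gene to the column gene in anti-CD3 minus that in IgG (n = 6 per group), with red for a higher ratio in anti-CD3, and an asterisk marks an exact permutation adjusted p under 0.05 over 15 pairs. The asterisks lie in the columns and rows of Reg3d and Reg1, at 1.45 to 2.09 in size, and the block of Reg3a, Reg3b, Reg3g and Reg2 lies within 0.24 of 0.

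Within the IgG group, the levels of Reg2 and the 4 Reg3 genes moved together more closely than any of them did with Reg1. Pearson's r of log2 CPM over the 6 IgG libraries was 0.79 to 1.00 for the 15 pairs, and Spearman's rho was 0.49 to 1.00. Of these, 10 pairs passed by r and 3 by rho in exact permutation tests adjusted over the 30 relations of both groups. The 5 pairs with Reg1 were the lowest by r, at 0.79 to 0.93. In anti-CD3, r was 0.04 to 0.97 and rho 0.09 to 0.94, with 3 pairs passing by r and 0 by rho. Reg1 had r of 0.04 to 0.35 with the other 5 members there. After leaving out the 2 libraries farthest from the median of the first gene of a pair, r was 0.26 to 1.00 in IgG and -0.68 to 0.96 in anti-CD3, so that the relations in anti-CD3 rest on such libraries for several pairs. All members of a library share its acinar share and its scaling.

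The acinar share and the Reg levels were set side by side in the IgG libraries. IgG 5 and IgG 6 had the lowest acinar shares, 55.1% and 32.3%, and the lowest levels of all 6 members in TMM-scaled CPM. Scaled by library size alone, IgG 6 was still the lowest for all 6, and IgG 5 came next for the 4 Reg3 genes. On that scale IgG 5 stood above IgG 1 for Reg1 (3521 against 3248 CPM) and above IgG 3 for Reg2 (78.8 against 55.9 CPM). Among the other IgG libraries the order differed. IgG 1 and IgG 2, with acinar shares of 64.5% and 67.4%, had higher levels of Reg2 and all 4 Reg3 genes than IgG 3 and IgG 4, whose acinar shares were 71.5% and 70.9%. For Reg1, IgG 3 and IgG 4 stood above IgG 1 and IgG 2 in TMM-scaled CPM.

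Over the 12 libraries, the genes whose log2 CPM was most like the mean of the 6 members were Btg2, Klk1b4, Ydjc, Angptl8, Fgf21, Tsta3, Cxadr and Rab26, taken from 10524 named genes with a mean log2 CPM of at least 1. Btg2, an antiproliferative gene induced by stress, had r = 0.97, and r = 0.92 after the group means were removed. For Klk1b4, a kallikrein, r was 0.96, and for Fgf21, a secreted metabolic growth factor, 0.96. The lowest r among the 8 genes was 0.95. Without IgG 5 and IgG 6 it was 0.83 to 0.90, so part of the likeness came from those libraries. None is in the acinar list, which does not hold every gene that acinar cells express, and none passed edgeR's test. Whether their likeness to the Reg genes follows the acinar share was not tested. Fgf21 was higher by 2.02 ± 0.50 on the log2 scale and Klk1b4 by 1.78 ± 0.40 (SE), with edgeR adjusted p of 0.0885 and 0.0684.

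Among the known inducers of Reg genes, no tested cytokine gene was higher in anti-CD3 by more than its SE. Of 9 cytokine genes, 6 were tested, of which 2 were higher and 4 lower in anti-CD3. These 6 genes had a median log2 fold change of -0.34, and none passed edgeR's test or had an unadjusted p under 0.05. Il6 was at 0.04 ± 0.60, Lif, a cytokine of the same family, at -0.33 ± 0.39, Osm at -0.82 ± 0.62, Il1b at -0.49 ± 0.66 and Tnf at -0.35 ± 0.51 (log2 fold change ± SE, n = 6 per group). Il22, Il17a and Ifng had too few counts to be tested. Il22 had 216 counts in the IgG group, 188 of them in IgG 6, the library with the lowest Reg levels, and 37 in anti-CD3. Ifng had 666 counts in the IgG group, 631 of them in IgG 6, and 38 in anti-CD3. Il17a had 7, all of them in IgG 6, and 2. Il6 is named here after its value was seen.

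Receptors and JAK-STAT genes differed little between the groups. Of 14 tested, 5 were higher and 9 lower, with a median log2 fold change of -0.20 and none past edgeR's test (unadjusted p under 0.05 for 1 higher and 3 lower, against 9.68% higher and 8.68% lower of all genes). Il11ra1, an interleukin-11 receptor chain, was at 0.63 ± 0.20, while Il6st, the shared gp130 receptor chain, was at -0.34 ± 0.14, Jak1 at -0.43 ± 0.18 and Il17ra at -0.33 ± 0.15 (log2 fold change ± SE; adjusted p by edgeR 0.144 to 0.268). Extl3 and Egfr, which have been reported to bind Reg proteins or carry their signals, were at 0.11 ± 0.19 and 0.24 ± 0.27 (SE, n = 6 per group), and Gpr37 had 0 counts in every library.

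STAT3 target and acute-phase genes were mixed. Of 18 tested, 11 were higher and 7 lower, with a median of 0.23, and none passed edgeR's test; 7 had an unadjusted p under 0.05, all of them higher, against 9.68% of all genes. Fgg and Fgb, which encode fibrinogen chains, were at 1.29 ± 0.29 and 0.84 ± 0.26, the metallothionein Mt2 at 0.87 ± 0.29 and the kinase Pim3 at 0.54 ± 0.17 (log2 fold change ± SE; adjusted p by edgeR 0.0659 to 0.152). Socs3, the feedback inhibitor that STAT3 induces and a gene named after its value was seen, was at 0.12 ± 0.29 (SE).

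Genes of acinar injury and metaplasia, a state in which acinar cells lose their enzymes and take on duct features, gave no single direction. Of 16, 11 were higher and 5 lower, with a median of 0.42 and none past edgeR's test (unadjusted p under 0.05 for 5 higher and 2 lower, against 9.68% and 8.68% of all genes). Prom1 and Sdc1 were at 0.75 ± 0.28 and 0.42 ± 0.16, while the adhesion receptor Cd44 was at -0.70 ± 0.24 (log2 fold change ± SE; adjusted p by edgeR 0.160 to 0.197). All 6 acinar transcription factors were higher, with a median of 0.54 and none past edgeR's test (unadjusted p under 0.05 for 1, against 9.68% of all genes). Ptf1a, the master regulator of acinar identity, was at 1.34 ± 0.55, Rbpjl at 0.64 ± 0.34, Gata4 at 0.61 ± 0.31 and Nr5a2 at 0.47 ± 0.33 (SE; adjusted p by edgeR 0.228 to 0.445).

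Immune and stromal markers had lower values in anti-CD3. T cell markers were lower in 10 of 10 genes (median -1.21), B cell markers in 6 of 6 (-1.55), macrophage markers in 8 of 8 (-0.60) and fibroblast and stellate cell markers in 9 of 9 (-1.05), with none past edgeR's test (unadjusted p under 0.05 for 4, 0, 1 and 5, against 8.68% of all genes in that direction). Their summed TMM-scaled CPM for T cells was 6.60 to 167 in the IgG libraries and 3.77 to 50.6 in the anti-CD3 libraries. For fibroblasts and stellate cells it was 64.2 to 287 and 23.1 to 114. The highest sum of the T cell, B cell, macrophage and fibroblast lists was in each case that of IgG 6. These lists were not fitted without that library. Duct cell markers were higher in 5 of 9 genes and lower in 4, with a median of 0.33, and beta cell markers higher in 3 and lower in 7, with a median of -0.11. Across all lists other than the Reg genes, edgeR and limma-voom called no gene, and DESeq2 called 4: Fgg and Prss2 higher, and the collagens Col1a1 and Col3a1 lower, where it called 2.75% of all genes higher and 1.22% lower. Of 10 gut epithelium markers, Cdx1, Cdx2, Fabp1, Fabp2, Alpi, Muc2, Lyz1 and Apoa4 had too few counts to be tested. The 2 tested, Lgals4 and Vil1, gave 1 higher and 1 lower, neither with an unadjusted edgeR p under 0.05. The summed TMM-scaled CPM of the 10 was 14.6 to 36.1 in the IgG libraries and 15.4 to 24.8 in the anti-CD3 libraries. Reg4, a relative outside this cluster that the gut expresses, had 8 counts over the 6 IgG libraries and 2 over the 6 anti-CD3 libraries. The part of the immune and stromal cells in the Reg differences was not tested.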

How the data were processed

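RNA was extracted from islets right after isolation and polyadenylated RNA was sequenced, per the labels' protocols. Per the submitters' processing notes, the tools were Trimmomatic 0.36, STAR 2.5.2b, featureCounts of Subread 1.5.2 and DESeq2 on GRCm38 (mm10). The sources used here do not give the annotation release, strand setting or handling of reads that fit several genes. The authors deposited whole-number counts per gene for 12 libraries. In the authors' second table, the deposited signal of each library equals its counts divided by 1 size factor, and its log2 fold changes (anti-CD3 against IgG), p-values and adjusted p-values are the authors' own.

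The members and all gene lists were chosen with earlier results of these data known. Counts were fitted over the whole table with edgeR 4.0.16 in R 4.3.3 (filterByExpr, minimum count 10, minimum total 15; TMM; robust quasi-likelihood F test, two-sided; Benjamini-Hochberg over 13115 genes; threshold 0.05). An SE is the size of the log2 fold change divided by the root of F. Levels are TMM-scaled CPM, and log2 CPM used a prior count of 2. Ratios between members used counts plus 1 and exact permutation of group labels. Groups came from the sample titles and gene models from GENCODE M21. The 6 members were named, with the 4 genes of smallest p in each list of inducers, targets and acinar regulators and the 8 genes most like the family; 1 gene that this rule names is not reported here.

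Alternatives were DESeq2 1.42.0, limma-voom 3.58.1 with sample weights, 4 other scalings, 2 other filters, no robust estimation, a replicate block, an acinar covariate, a pseudocount of 0.5 and libraries left out. No 2 libraries of a group agreed within sampling noise. The procedure was tested on simulated data.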

Additional observations from a re-analysis of the deposited data

Results flagged for a closer look

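In 30 tests for a library far from the rest of its group (Dixon's test, groups of 6), 7 values stood out, and all 7 belonged to anti-CD3 5. Chance gives about 1 in 20 only if the values are normally distributed, and CPM was tested without taking logs. The tests share this library and related genes, so they are not independent. In TMM-scaled CPM, anti-CD3 5 was the highest of its group for Reg2 at 2362 (next 1046), for Reg3a at 428 (next 84.3), for Reg3b at 1821 (next 754) and for Reg3g at 252 (next 97.7). Its log2 ratio of Reg3a to the acinar counts was -11.17, against -13.37 in the next library. In that log2 ratio Reg2, Reg3b and Reg3g did not stand out. The Reg genes took 0.965% of its counts (next 0.796%), and Reg1 made up 60.2% of its Reg counts, the lowest share of the group (next 76.2%). Reg1 and Reg3d of the same library did not stand out.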

How the results depend on the processing

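The 6 members passing edgeR's test numbered 0, against 6 by DESeq2 and 3 by limma-voom with sample weights, and 0 to 1 when single libraries were left out (1 without anti-CD3 2). The cause of the difference between the tools was not tested. Other scalings, filters and no robust estimation left 0. All 6 stayed higher in anti-CD3 under every alternative run. The median log2 fold change, 2.72, was 1.34 with the acinar covariate, 2.15 to 3.19 with single libraries left out and 2.20 without IgG 5 and IgG 6. The difference in the family's share of counts, 0.391 percentage points, was 0.345 to 0.416 with single libraries left out. The labels do not say that a number in the titles marks a shared source, and the correlations of same-numbered libraries were mixed, at -0.29 to 0.55 with 3 of 6 best with their own number, so pairing was not assumed. With the replicate block the median log2 fold change was 3.16, and 0 of the 13115 genes tested passed, and so 0 members. Reg2 moved most with this block, from 6.09-fold to 10.6-fold.

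Of the pairs of members, 8 passed, and 0 to 8 with single libraries left out and 0 without IgG 5 and IgG 6. Of the pairs that did not pass, 4 changed sign. Reg2 to Reg3a (-0.013) was 0.010 without IgG 5 and IgG 6 and -0.15 to 0.21 with single libraries left out. Reg2 to Reg3b (0.11) was -0.13 and -0.17 to 0.25 in the same order, Reg3a to Reg3b (0.12) was -0.14 and -0.10 to 0.27, and Reg2 to Reg3g (0.23) was -0.034 to 0.38 with single libraries left out. Depth limits Reg3a most, with 18 counts in IgG 6.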
